A study of Rattus norvegicus with 4 samples.

Results

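The 8 genes described here take up, store or break down noradrenaline and related monoamines. They were chosen by symbol from the 32883 genes of the deposited single-nucleus count tables, with no threshold on their values but with earlier results of these data known. They are Slc6a2 (ENSRNOG00000016311), Slc18a1 (ENSRNOG00000011992), Slc18a2 (ENSRNOG00000008890), Slc22a2 (ENSRNOG00000016625), Slc22a3 (ENSRNOG00000022946), Slc29a4 (ENSRNOG00000001115), Maoa (ENSRNOG00000002848) and Maob (ENSRNOG00000029778). Nuclei came from frozen fat of untreated male Dahl salt-sensitive rats, a strain (SS/HsdMcwiCrl) whose blood pressure rises on a high-salt diet. The rats were 16 weeks old, were housed at 22 °C and ate standard chow. One tissue was the perivascular fat of the thoracic aorta (taPVAT), and the other was the brown fat below the shoulder blades (BAT), which serves as the reference. Each tissue gave 2 libraries, and the series' design text names 2 rats per tissue. Whether each library is 1 rat, and whether both tissues came from the same rats, is not stated in the labels. The p-values between tissues therefore measure only the spread between these libraries. Those between classes measure the spread of the sums per library and class that is left once both are fitted, not a spread between rats. The comparison asks where in each fat depot the amine that sympathetic nerves release could be taken up, stored or broken down.

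Sympathetic nerves release noradrenaline onto brown and perivascular fat, where it drives heat production and lipolysis and acts on the vessel wall. Slc6a2 encodes the transporter that returns noradrenaline to the nerve ending, and Slc18a1 and Slc18a2 encode the carriers that load monoamines into vesicles. Slc22a2, Slc22a3 and Slc29a4 encode polyspecific cation and monoamine transporters that take up monoamines outside nerves. Maoa and Maob encode monoamine oxidases of the outer mitochondrial membrane, of which the A form prefers noradrenaline and serotonin. The cell bodies of sympathetic neurons, and so their nuclei, lie mainly in ganglia outside the fat.

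RefSeq's promoter table (build GRCr8) held 6 of the 8 genes. The 250 bases before the annotated start are shown for a pair of transporter genes on chromosome 1 with very different levels here, and for both oxidase genes, which differ between cell classes although no annotated gene lies between them on chromosome X. They are written 5′ to 3′ along each gene, and capitals mark the GC box, GGGCGG or its reverse complement CCGCCC.
Slc22a3, chr1:50782968-50783217, plus strand: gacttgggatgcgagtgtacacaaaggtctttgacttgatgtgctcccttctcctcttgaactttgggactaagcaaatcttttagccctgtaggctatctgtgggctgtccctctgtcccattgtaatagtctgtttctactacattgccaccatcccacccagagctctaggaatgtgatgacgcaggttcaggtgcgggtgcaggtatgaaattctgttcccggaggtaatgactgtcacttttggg
Slc22a2, chr1:50711020-50711269, minus strand: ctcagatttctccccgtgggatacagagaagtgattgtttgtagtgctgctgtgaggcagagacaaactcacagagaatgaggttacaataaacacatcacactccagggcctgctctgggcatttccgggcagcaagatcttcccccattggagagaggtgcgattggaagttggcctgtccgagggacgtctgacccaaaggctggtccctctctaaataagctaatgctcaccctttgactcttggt
Maoa, chrX:8681373-8681622, minus strand: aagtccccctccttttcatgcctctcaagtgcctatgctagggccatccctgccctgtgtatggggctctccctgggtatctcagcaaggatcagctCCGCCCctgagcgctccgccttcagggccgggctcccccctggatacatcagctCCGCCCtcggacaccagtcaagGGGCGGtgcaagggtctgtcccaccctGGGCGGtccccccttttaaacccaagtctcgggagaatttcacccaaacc
Maob, chrX:8490155-8490404, plus strand: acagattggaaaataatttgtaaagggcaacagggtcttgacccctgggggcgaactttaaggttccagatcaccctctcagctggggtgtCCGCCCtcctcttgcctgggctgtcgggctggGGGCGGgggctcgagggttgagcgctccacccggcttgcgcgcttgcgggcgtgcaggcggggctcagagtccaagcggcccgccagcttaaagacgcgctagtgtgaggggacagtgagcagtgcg
The Maoa window holds 4 GC boxes and the Maob window 2, whereas the windows of Slc22a3 and Slc22a2 hold 0. Of the other windows in the table, that of Slc29a4 holds 5 and that of Slc18a2 holds 2, so the boxes do not divide the oxidases from the transporters. Of all 33469 promoter windows of this length, 30.5% hold at least 1. G and C made up 62.4% of the bases in the Maoa window, 63.6% in that of Maob, 48.8% in that of Slc22a3 and 51.2% in that of Slc22a2, against a median of 51.2% over all windows. The letters TGACG or CGTCA, which form part of the cyclic AMP response element, occur 1 time in the Slc22a3 window, 1 time in that of Slc29a4, 3 times in that of Slc18a2 and 0 times in the other 3, and in 18.2% of all windows. Of the 3 matches in the Slc18a2 window, 2 overlap within the letters TGACGTCA. These matches describe the windows and are not evidence of binding.

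The libraries held 14765 to 44637 barcodes and 63654436 to 158140959 unique molecular identifiers (UMIs, each standing for 1 captured RNA molecule), with taPVAT replicate 2 the smallest. After nuclei with under 500 genes and likely doublets were removed, 38053 and 11930 nuclei remained in the taPVAT libraries, numbered replicates 1 and 2, and 31369 and 24879 in the BAT libraries. Clusters were named from marker genes alone, so each class name below stands for a class that is like that cell type, and none of the 8 genes entered the clustering or the marker lists. Adipocytes made up 74.8% to 79.5% of the nuclei of each library. Adipocyte clusters mostly followed the library or its replicate number. That led by Entpd1, for example, held 3 and 1475 nuclei of taPVAT replicates 1 and 2, and 1 and 10589 of BAT replicates 1 and 2. Pairs of libraries shared 93 to 381 cell barcodes, 0.754% to 1.19% of the smaller library. The other named classes had 0 to 1588 nuclei per library, where 0 stands for mesothelial nuclei in BAT. A further 10058 nuclei lay in mixed clusters, which carried markers of adipocytes and of another class. They were left out of the class comparisons by cluster, but could enter where nuclei were assigned singly. The lists for mast cells, neurons, skeletal muscle, erythroid cells or platelets and proliferating cells were not used to name clusters. The lack of clusters with these names is therefore no result.

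The neuronal transporter gene was near the detection limit in both tissues, and the vesicular carrier genes were low but above it. Lists of 4 values below run in the order taPVAT replicate 1, taPVAT replicate 2, BAT replicate 1 and BAT replicate 2. Slc6a2, the neuronal noradrenaline transporter, had 1, 0, 5 and 1 UMIs over all kept nuclei. The 7 UMIs lay in 7 nuclei and corresponded to 0.0168 counts per 1000000 UMIs (CPM; 95% exact Poisson interval 0.00677 to 0.0347, which covers counting error only). At this depth no difference between the tissues could be detected, and Slc6a2 entered no test. Slc18a1, the vesicular carrier known from chromaffin cells, measured 0.378, 0.304, 0.325 and 0.108 CPM. Slc18a2, the carrier of monoaminergic neurons and mast cells, measured 1.47, 1.23, 1.24 and 1.14 CPM. BAT replicate 2 was the lowest for both carriers, and taPVAT replicate 1 the highest.

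UMIs of the vesicular carrier gene Slc18a2 were spread over the classes much as RNA in general, whereas nearly all of Slc18a1 lay in adipocyte and mixed clusters. Adipocytes held 425 of the 538 UMIs of Slc18a2, 79.0%, and 81.5% of all UMIs. For Slc18a1 they held 106 of 123 UMIs, 86.2%. Mixed clusters held 15 UMIs of Slc18a1, 12.2% of its UMIs against 12.6% of all UMIs. T or NK lymphocytes and the unnamed clusters held 1 UMI of Slc18a1 each. The unnamed clusters held 6 UMIs of Slc18a2, 1.12% of its UMIs against 0.262% of all UMIs. Schwann nuclei held 0 UMIs of Slc6a2, Slc18a1 and Slc18a2. Of 17 nuclei with at least 3 of 7 mast cell markers such as Cpa3 and Tpsb2, 2 held a UMI of Slc18a2 and 2 a UMI of Slc18a1. Kit and Gata2 of the mast cell list were not counted here. Over all kept nuclei 0.382% to 0.612% per library held a UMI of Slc18a2 and 0.0362% to 0.129% a UMI of Slc18a1. The shares among the 17 were thus higher, but rest on 2 nuclei for each carrier. Only 1 nucleus of all 4 libraries held at least 3 of 9 neuron markers, and it held no UMI of Slc6a2, Slc18a1 or Slc18a2. Th, which encodes the first enzyme of catecholamine synthesis, had 14 and 4 UMIs in taPVAT and 12 and 4 in BAT, and Dbh, which encodes the enzyme that makes noradrenaline, had 1 and 1 against 0 and 2. Slc6a2, Th and Dbh were therefore hardly sampled in these nuclei.

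The 3 transporter genes known for uptake outside nerves differed widely in level. Over all nuclei Slc22a3, the extraneuronal monoamine transporter, measured 380, 383, 411 and 429 CPM. Its relative Slc22a2, best known from the kidney, measured 0.949, 0.710, 1.43 and 1.29 CPM. Slc29a4, which encodes a membrane monoamine transporter of brain and heart, measured 0.178, 0.237, 0.159 and 0.108 CPM. Both BAT libraries lay above both taPVAT libraries for Slc22a3 and Slc22a2, and both taPVAT libraries lay above both BAT libraries for Slc29a4. The first order holds for 9.95% of all genes tested in all nuclei and the second for 11.5%. None of these differences passed the test. Counts of 3′ ends such as these are not scaled to transcript length, so the values of a gene are compared between libraries and classes, and only the very large gaps between genes are described.

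**Figure D1:**
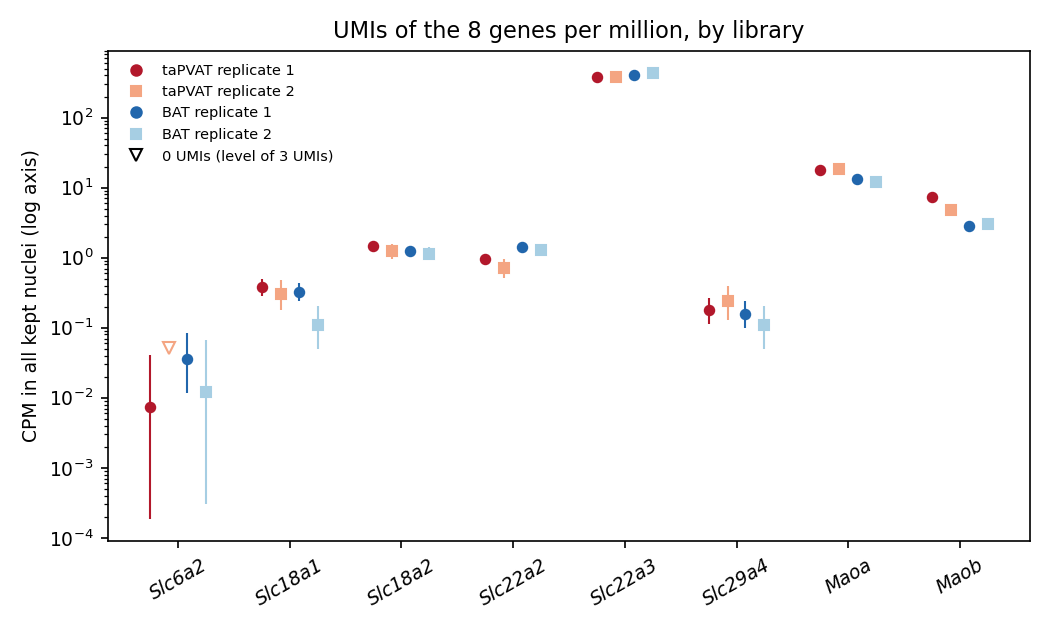
Level of each of the 8 genes over all kept nuclei, in CPM on a log axis, with 1 point per library (taPVAT and BAT, 2 libraries each). Slc22a3 lies near 400 CPM in each library (380 to 429), Maoa between 12.0 and 18.2, Maob between 2.83 and 7.41, and the other 5 genes at or below 1.47.

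No member passed the tissue test in all nuclei (0% of 16766 tested genes were called, with edgeR's quasi-likelihood test and Benjamini-Hochberg adjusted p under 0.05), where 7 of the 8 could be tested. At an unadjusted p under 0.05 stood 490 genes, 2.92%, among them Maob. DESeq2 called 107 genes, and edgeR with the replicate number as a block called 367. In such sums fewer cells of a type and less RNA per cell cannot be told apart, so the classes were also compared one at a time. In adipocytes 0% of 15684 genes were called, and 337 genes, 2.15%, stood at an unadjusted p under 0.05, again with Maob among them. DESeq2 called 63 there, and edgeR with the block 357. In the other classes 0.244% of 9412 genes were called in fibroblasts and 0.0115% of 8729 in mural nuclei, none of them a member, and 0% in vascular endothelial, myeloid, T or NK lymphocyte, B lymphocyte and Schwann nuclei. With 2 libraries a tissue and libraries that also differ by replicate number, a gene that misses the threshold is not shown to be alike in both tissues.

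Slc22a3 was an adipocyte transcript in both fats. In adipocytes it measured 405, 410, 433 and 458 CPM. The 4 libraries lay within a narrow band, with BAT above taPVAT, an order that holds for 10.8% of all genes tested in adipocytes. The tissue means, 407 ± 3.90 and 446 ± 17.6 CPM (SD, n = 2), differed by -0.09 ± 0.26 (SE) on the log2 scale (95% interval -0.74 to 0.55; edgeR, adjusted p = 1). A UMI of Slc22a3 was found in 63.4% and 72.6% of taPVAT adipocytes and in 72.6% and 63.5% of BAT adipocytes. The medians were 3158, 4981, 4006 and 2830 UMIs per adipocyte in the same order, so the deeper libraries, taPVAT replicate 2 and BAT replicate 1, had the larger shares. When each adipocyte was thinned to 1000 UMIs, which left out 14 to 509 shallower nuclei per library, the shares were 30.5%, 30.5%, 32.3% and 34.2%.

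In every other class that could be compared, Slc22a3 was lower than in adipocytes of the same libraries. The fit of class and library over all 4 libraries tested 10700 genes. It called 59.2% of them in fibroblasts, 64.3% in vascular endothelial nuclei, 54.6% in mural nuclei, 62.1% in myeloid nuclei, 50.9% in T or NK lymphocytes, 37.2% in B lymphocytes and 43.3% in Schwann nuclei. A call is thus common in this comparison. Depth and the share of mitochondrial UMIs moved with class as well. The median mitochondrial share was 7.38% in adipocytes, 16.3% to 18.2% in Schwann, fibroblast, mural and vascular endothelial nuclei and 21.9% to 22.0% in T or NK lymphocytes, B lymphocytes and myeloid nuclei, and its part in the class differences was not tested. Genes higher and lower than in adipocytes made up 31.0% and 28.3% in fibroblasts, 32.2% and 32.1% in vascular endothelial nuclei, 26.7% and 27.9% in mural nuclei, 29.9% and 32.3% in myeloid nuclei, 22.6% and 28.3% in T or NK lymphocytes, 13.3% and 23.9% in B lymphocytes and 19.8% and 23.5% in Schwann nuclei. Fibroblasts measured 126, 49.6, 110 and 84.8 CPM. Vascular endothelial nuclei measured 123, 50.8, 111 and 67.3 CPM. In both classes taPVAT replicate 2 was the lowest, and each library lay far below its own adipocytes. The log2 fold change against adipocytes ran from -1.73 ± 0.24 in mural nuclei to -2.66 ± 0.30 in Schwann nuclei, and the adjusted p-values of edgeR lay between 1.49e-11 and 1.69e-06 over the 7 classes. By mean level adipocytes, at 427 ± 24.3 CPM (SD, n = 4), were followed by mural nuclei at 163 ± 88.3, B lymphocytes at 151 ± 99.2, T or NK lymphocytes at 123 ± 43.2, myeloid nuclei at 109 ± 47.7, fibroblasts at 92.5 ± 33.2, vascular endothelial nuclei at 88.1 ± 34.6 and Schwann nuclei at 86.2 ± 34.3 CPM, and below adipocytes neighbours differ by less than the larger of their SDs. With nuclei assigned singly by their own markers instead of by cluster, the differences shrank to between -0.25 and -0.77, and that in Schwann nuclei, then -0.25, was no longer called (edgeR, adjusted p = 0.115).

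RNA of adipocyte marker genes was found in all other classes, so each level was set beside that of 12 such genes in the same nuclei. In fibroblasts Slc22a3 stood at 12.1% to 31.1% of its adipocyte level, whereas the median marker stood at 28.6% to 49.0%. The range in vascular endothelial nuclei was 12.4% to 30.5%, beside marker medians of 35.4% to 51.1%. Slc22a3 was below the median marker in each of the 4 libraries in fibroblast, vascular endothelial, myeloid, T or NK lymphocyte and Schwann nuclei. It was above it in 1 of 4 libraries in mural nuclei and in 1 of 4 in B lymphocytes, where the value rests on 3 to 29 UMIs per library. With nuclei assigned singly it was above the median marker in 2 of 4 libraries in fibroblasts, T or NK lymphocytes and B lymphocytes, 3 of 4 in mural and myeloid nuclei, 4 of 4 in Schwann nuclei and 0 of 4 in vascular endothelial nuclei, and above the highest marker in 0 libraries of each. Single markers ran from 14.8% to 111% in fibroblasts. Free RNA was not measured, and the source of the Slc22a3 UMIs in other classes was not tested. Levels at or below the markers cannot be told apart from RNA of adipocytes, so no expression of Slc22a3 by those classes is read from them. Apart from vascular endothelial nuclei, however, their place below the median depends on how nuclei were assigned. Single assignment also drew in nuclei of adipocyte and mixed clusters. Of the 935 nuclei it named Schwann, 234 lay in the Schwann cluster, 495 in adipocyte clusters and 200 in mixed ones. Their marker medians were 82.0% to 91.8%, against 25.9% to 44.8% by cluster. Mesothelial nuclei, found in taPVAT alone, measured 233 and 151 CPM, 36.8% to 57.6% of the adipocyte level beside marker medians of 43.3% to 64.7%.

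**Figure D2:**
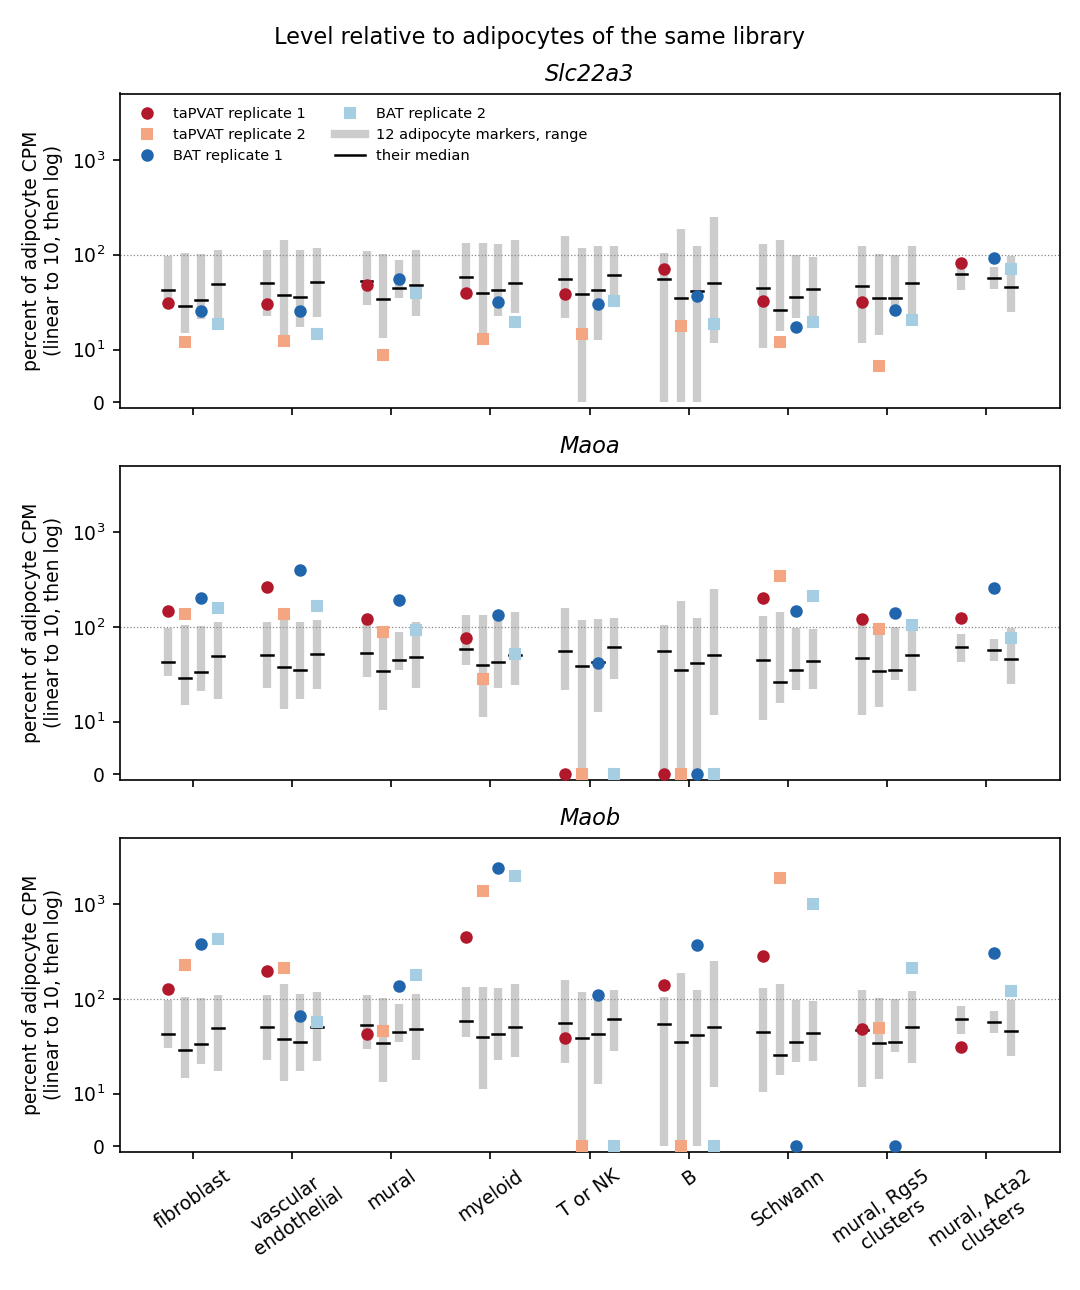
Level of Slc22a3, Maoa and Maob in each class as a percent of the adipocyte level of the same library (linear up to 10% and log above), with 1 point per library, beside the median and the range of the 12 adipocyte markers. Slc22a3 stays below the marker median in most classes, such as 12.1% to 31.1% in fibroblasts, whereas Maob in myeloid nuclei lies at 449% to 2402%.

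The mural class held a cluster that stood apart for Slc22a3. The clusters were set apart after their values were seen, so they are described without a test. In the cluster led by Acta2 and Myh11, smooth muscle contractile genes, Slc22a3 measured 327, 151, 399 and 323 CPM. The value of taPVAT replicate 2 rests on 6 UMIs of 19 nuclei, under the 20 nuclei required elsewhere. In the other 3 libraries these values were 70.5% to 92.1% of the adipocyte level, above the marker median of 45.6% to 61.9% in 3 of 3 libraries but within the range of single markers in BAT replicate 2 and taPVAT replicate 1. In BAT replicate 1 it stood at 92.1%, above the highest marker at 74.7%. In the clusters led by Rgs5, a pericyte gene, Slc22a3 measured 127, 28.5, 112 and 93.6 CPM, and it lay below the median marker in 4 of 4 libraries. Without the Acta2 and Myh11 cluster the mural class was above the median marker in 0 of 4 libraries. In that cluster Myh11 measured 4068 to 7870 CPM. Adipoq, an adipocyte marker, measured 267, 252, 280 and 262 CPM there, 386, 232, 373 and 328 CPM in the Rgs5 clusters and 208 to 342 CPM in the adipocytes not led by Kcnip1. Plin1, which encodes a lipid droplet protein of adipocytes, measured 1177, 227, 1408 and 608 CPM there, 635, 232, 744 and 408 CPM in the Rgs5 clusters and 1331 to 2618 CPM in the same adipocytes. Plin1 was thus higher than in the Rgs5 clusters in 3 of 4 libraries and Slc22a3 in 4 of 4, taPVAT replicate 2 being the library where they differed, and the part of adipocyte RNA in the Slc22a3 level was not tested.

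Maoa, the oxidase that prefers noradrenaline, was found in most classes and was higher in vascular endothelial nuclei than in adipocytes. In adipocytes it measured 16.2, 17.9, 12.2 and 11.5 CPM. In vascular endothelial nuclei it measured 42.6, 24.3, 48.5 and 19.1 CPM, with replicate 1 of each tissue above replicate 2. Each library lay above its own adipocytes. The mean was 33.6 ± 14.2 CPM (SD, n = 4) against 14.4 ± 3.10 CPM, which is 1.07 ± 0.23 (SE) higher on the log2 scale (edgeR, adjusted p = 1.15e-04). Over the 9 alternatives the log2 fold change ran from 0.56 to 1.30 with adjusted p-values up to 0.0101, and it was 0.56 with nuclei assigned singly.

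The other classes did not pass edgeR's test in the higher direction for Maoa. Fibroblasts measured 23.5, 24.4, 24.2 and 17.9 CPM, 0.41 ± 0.24 above adipocytes on the log2 scale (edgeR, adjusted p = 0.146). Every library of fibroblasts lay above its own adipocytes, and the difference was called under 1 of the 9 alternatives, DESeq2 (adjusted p = 0.0283). Schwann nuclei measured 32.7, 60.8, 17.7 and 24.0 CPM, which rest on 4 to 8 UMIs per library (log2 difference 0.79 ± 0.40, edgeR, adjusted p = 0.109). DESeq2 called that difference too (1.16, adjusted p = 0.0120). Mural nuclei measured 19.7, 15.9, 23.4 and 10.7 CPM, around the adipocyte level. Against the adipocyte background, Maoa lay above the median marker in each of the 4 libraries in fibroblast, vascular endothelial, mural and Schwann nuclei, and above the highest single marker in each library in fibroblasts and Schwann nuclei. Mesothelial nuclei of taPVAT measured 28.0 and 78.2 CPM, from 27 and 15 UMIs, above the highest marker in both libraries. They were not tested, because a class needed at least 20 nuclei in every library.

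Myeloid nuclei and lymphocytes were called lower than adipocytes for Maoa, the former with little support. Myeloid nuclei measured 12.2, 5.08, 16.3 and 5.98 CPM, from 3 to 12 UMIs a library, and BAT replicate 1 lay above its own adipocytes. The log2 difference of -0.79 ± 0.34 (SE; edgeR, adjusted p = 0.0420) was called under only 2 of the 9 alternatives. It was lost without taPVAT replicate 1 (-0.83, adjusted p = 0.0966), without taPVAT replicate 2 (-0.43, adjusted p = 0.307) or without BAT replicate 2 (-0.70, adjusted p = 0.127), and over all alternatives the adjusted p ran from 0.00562 to 0.307. At 28.4% to 134% of the adipocyte level, myeloid Maoa lay within the range of the adipocyte markers except in BAT replicate 1.

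The lymphocyte clusters were nearly devoid of Maoa UMIs. T or NK lymphocytes held 0, 0, 2 and 0 UMIs, and their pooled level was 7.49-fold lower than in adipocytes (95% counting interval 2.07 to 61.9). The fit called this difference (edgeR, adjusted p = 1.55e-04). It was no longer called with nuclei assigned singly (adjusted p = 0.0647). B lymphocytes held 0 UMIs in 4 of 4 libraries. Against the floor of 3 UMIs over the class, Maoa was at least 1.46-fold lower there than in adipocytes, and this difference was called as well (edgeR, adjusted p = 0.00511). With nuclei assigned singly, B lymphocytes held 5, 0, 2 and 1 UMIs, at 135%, 0%, 49.0% and 98.3% of the adipocyte level, so the near absence rests on the clusters. These classes also carried RNA of adipocyte markers, with marker medians of 38.9% to 60.9% in T or NK lymphocytes.

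**Figure D3:**
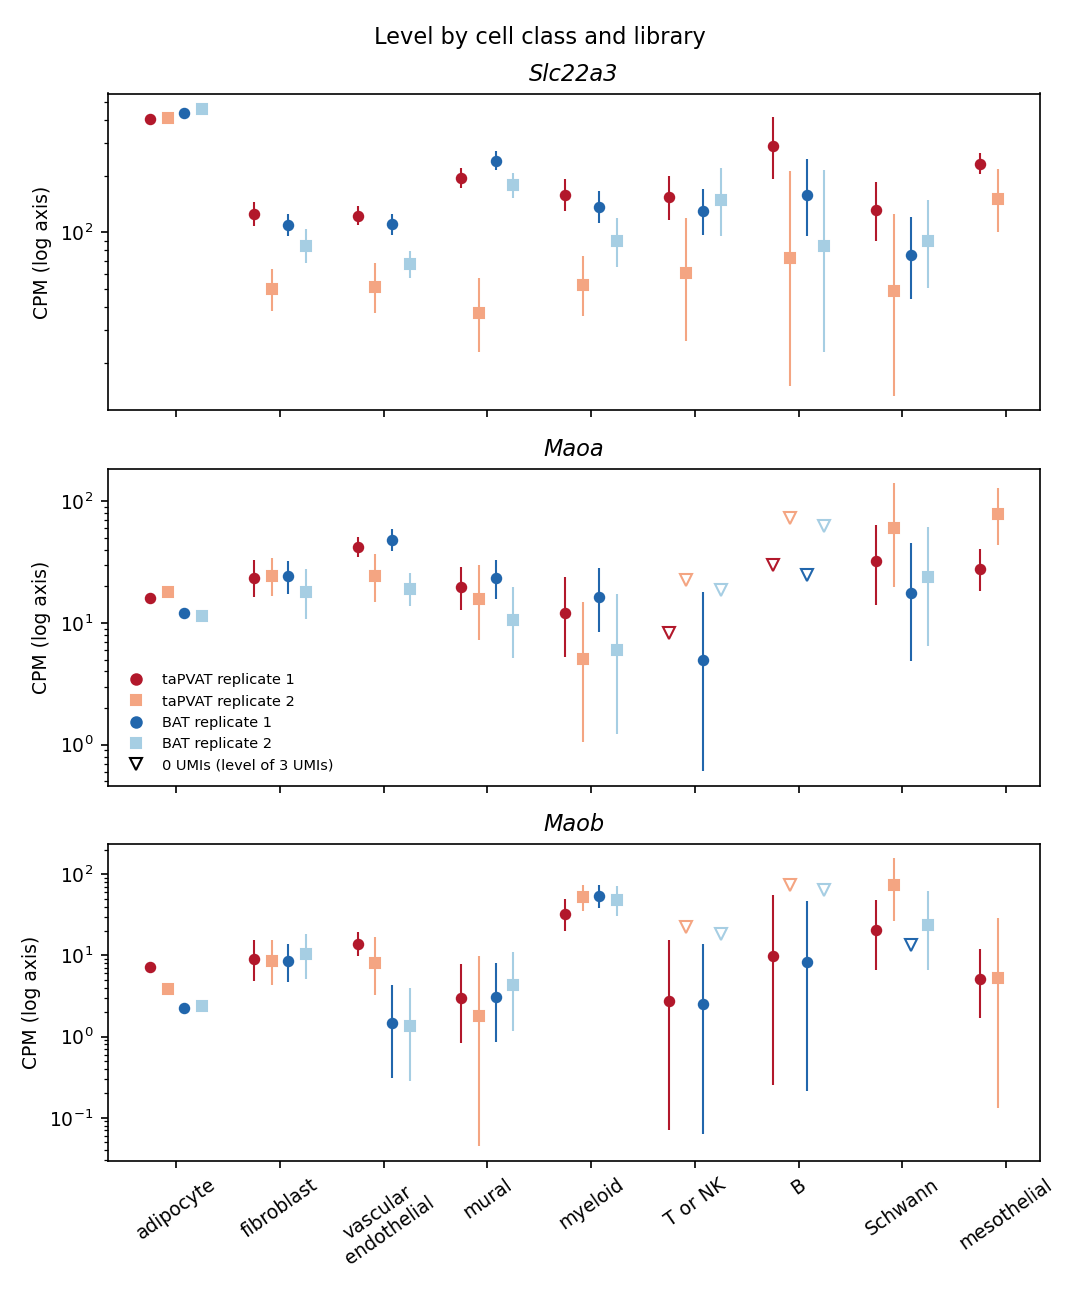
Level of Slc22a3, Maoa and Maob in each cell class, in CPM on a log axis, with 1 point per library, 95% Poisson intervals as bars and open triangles at the level of 3 UMIs where none was found. Slc22a3 is highest in adipocytes (405 to 458 CPM), Maoa is higher in vascular endothelial nuclei (19.1 to 48.5 CPM) than in adipocytes, and Maob lies at 32.1 to 54.2 CPM in myeloid nuclei, exceeded by 1 Schwann value of 73.0.

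Ordered by mean level, Maoa stood at 33.8 ± 19.0 CPM (SD, n = 4) in Schwann nuclei, 33.6 ± 14.2 in vascular endothelial nuclei, 22.5 ± 3.09 in fibroblasts, 17.4 ± 5.41 in mural nuclei, 14.4 ± 3.10 in adipocytes and 9.88 ± 5.31 in myeloid nuclei. Neighbours in this order differ by less than the larger of their SDs, and T or NK lymphocytes, at 1.25 ± 2.51 CPM, stood below all of these. Within the endothelial class the cluster led by Eln and Gja5, genes of arterial endothelium, measured 49.4, 25.5, 76.2 and 63.5 CPM. The cluster with Vwf among its leading genes measured 27.2, 23.8, 49.7 and 15.3 CPM, from 1 to 10 UMIs a library. In BAT replicate 2 the Eln and Gja5 cluster held 155 of 1374 endothelial nuclei and 20 of 42 UMIs of Maoa. These clusters were set apart after their values were seen.

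No difference of Maoa between the tissues passed the test. Adipocytes averaged 17.0 ± 1.15 CPM in taPVAT and 11.8 ± 0.483 CPM in BAT (SD, n = 2), and both taPVAT libraries lay above both BAT libraries. Such an order holds for 9.49% of all genes tested in adipocytes. The log2 difference was 0.57 ± 0.27 (SE; 95% interval -0.11 to 1.24; edgeR, unadjusted p = 0.0841, adjusted p = 1). In vascular endothelial nuclei the means were 33.4 and 33.8 CPM, from the values above, a log2 difference of -0.01 ± 0.48, which changed sign under several alternatives. In fibroblasts the means were 24.0 ± 0.636 and 21.1 ± 4.47 CPM, and in mural nuclei 17.8 ± 2.67 and 17.0 ± 8.95 CPM, neither of which passed the test.

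Maob, the oxidase with a preference for other amines, had its highest replicated level in myeloid nuclei. These measured 32.1, 52.5, 54.2 and 47.8 CPM, from 21, 31, 40 and 24 UMIs, against 7.14, 3.86, 2.26 and 2.40 CPM in adipocytes. The median mitochondrial share was 22.0% in myeloid nuclei against 7.38% in adipocytes, and 29.9% of all tested genes were called higher in myeloid nuclei. The means were 46.6 ± 10.1 and 3.91 ± 2.27 CPM (SD, n = 4), a log2 difference of 3.49 ± 0.37 (SE; edgeR, adjusted p = 2.65e-10). The difference was called under each of the 9 alternatives, from 2.47 to 3.99. Maob stood at 449% to 2402% of the adipocyte level, above the highest marker at 144%. A UMI was found in 3.75%, 6.15%, 5.93% and 6.01% of myeloid nuclei, although their median depth of 1323 UMIs was below the 3503 of adipocytes, where 0.694% to 2.35% held one.

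The myeloid clusters did not share Maob evenly. In the clusters led by Slfn4, with 331, 250, 344 and 270 nuclei, Maob measured 47.1, 78.8, 77.8 and 64.7 CPM. In the cluster led by Cd163, a gene of resident macrophages, with 175, 124, 145 and 96 nuclei, it measured 4.34, 0, 0 and 0 CPM, which is 1 UMI in all. The Slfn4 clusters therefore held all but 1 of the 116 myeloid UMIs of Maob. Maoa went the other way in 3 of 4 libraries, with 7.06, 0, 7.78 and 8.09 CPM in the Slfn4 clusters and 21.7, 15.2, 35.8 and 0 CPM in the Cd163 cluster, from 0 to 8 UMIs a library. Ptprc, the pan-leukocyte gene, measured 2336 to 3005 CPM in the Slfn4 clusters and 613 to 1134 CPM in the Cd163 cluster. Adipoq measured 313 to 535 and 288 to 465 CPM, ranges that overlap. The split was noticed in these data and is given without a test.

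**Figure D4:**
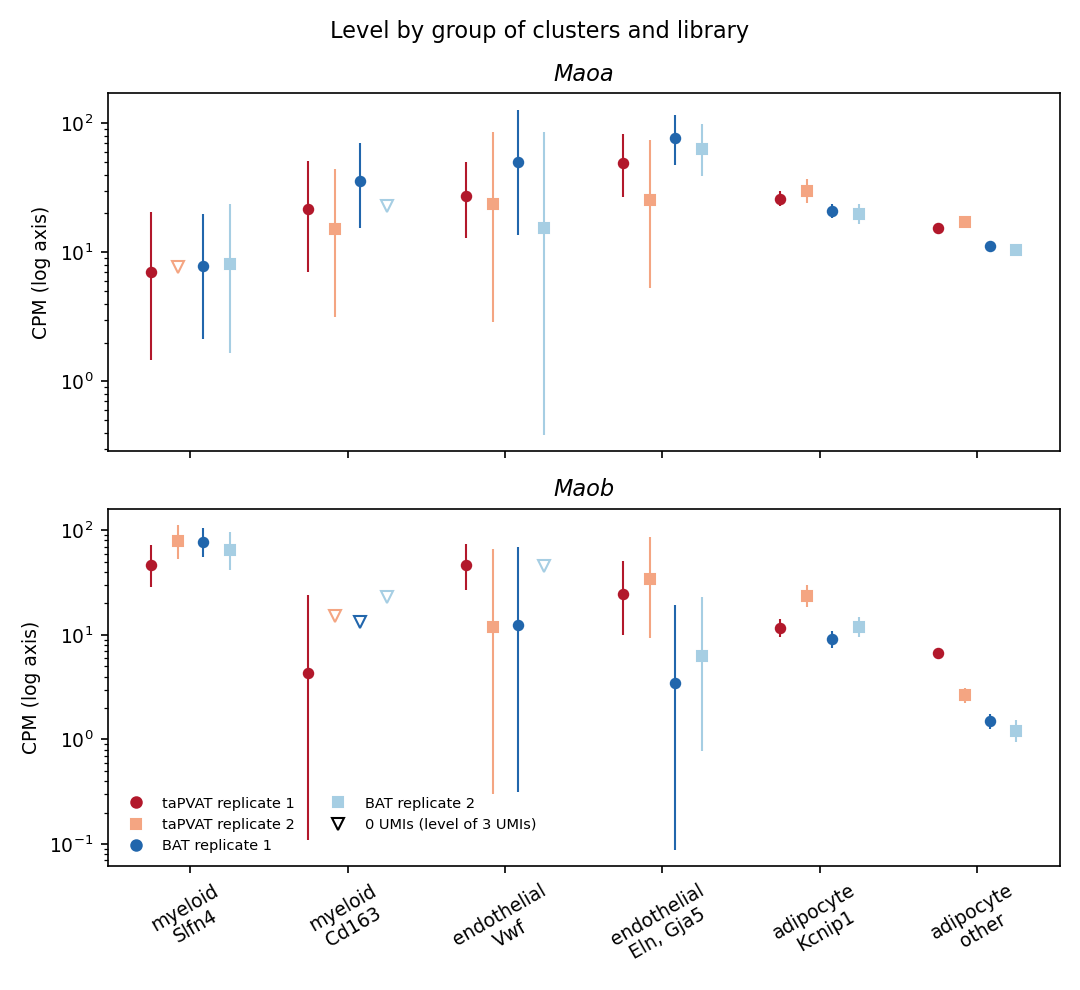
Level of Maoa and Maob in groups of clusters within the myeloid, endothelial and adipocyte classes, in CPM on a log axis, with 1 point per library, 95% Poisson intervals as bars and open triangles at the level of 3 UMIs where none was found. Maob lies at 47.1 to 78.8 CPM in the Slfn4-led myeloid clusters and at 0 to 4.34 CPM in the Cd163-led cluster, and Maoa at 25.5 to 76.2 CPM in the endothelial cluster led by Eln and Gja5.

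Maob was also higher than in adipocytes in fibroblasts and Schwann nuclei, with less support. Fibroblasts measured 8.99, 8.66, 8.45 and 10.4 CPM, a narrow band above the adipocytes of each library, from 11 to 15 UMIs a library. The log2 difference was 1.13 ± 0.41 (SE; edgeR, adjusted p = 0.0178). It was no longer called without BAT replicate 1 (0.88, adjusted p = 0.113) or without BAT replicate 2 (0.89, adjusted p = 0.119), and over all alternatives the adjusted p ran from 0.00351 to 0.134. Schwann nuclei measured 20.4, 73.0, 0 and 24.0 CPM, from 5, 6, 0 and 4 UMIs. Their log2 difference from adipocytes of 2.33 ± 0.65 (edgeR, adjusted p = 0.00370) was 1.75 without taPVAT replicate 2 (adjusted p = 0.103). Over its alternatives the adjusted p ran from 6.56e-05 to 0.194. Maob in vascular endothelial nuclei (6.22 ± 6.03 CPM, SD, n = 4), mural nuclei (1.77 to 4.28 CPM) and the lymphocyte classes, with 2 UMIs each, was not called against adipocytes. By mean level Maob stood at 46.6 CPM in myeloid nuclei, 29.4 ± 31.0 in Schwann nuclei, 9.12 ± 0.863 in fibroblasts, 6.22 in vascular endothelial nuclei, 4.57 ± 5.32 in B lymphocytes, 3.91 in adipocytes, 3.05 ± 1.03 in mural nuclei and 1.31 ± 1.52 in T or NK lymphocytes. Neighbours from myeloid nuclei down to mural nuclei differ by less than the larger of their SDs, which for the pairs with Schwann nuclei is 31.0 CPM.

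Between the tissues Maob was the member with the smallest unadjusted p in adipocytes, and its taPVAT values were the higher ones. Adipocytes averaged 5.50 ± 2.32 CPM in taPVAT and 2.33 ± 0.0994 CPM in BAT (SD, n = 2), and taPVAT replicate 1, at 7.14 CPM, set much of the gap. Both taPVAT libraries lay above both BAT libraries, as for 9.49% of genes. The log2 difference of 1.26 ± 0.40 (SE; 95% interval 0.26 to 2.27) did not pass the test (edgeR, unadjusted p = 0.0220, adjusted p = 1). Without taPVAT replicate 1 it was 0.76, and with the replicate number as a block it was 1.23 ± 0.29 with an adjusted p of 0.0326, the smallest over its 11 alternatives, which reached 1. That fit called 357 of 15684 genes, against 0 without the block. Thinned to 1000 UMIs, 0.701% and 0.476% of taPVAT adipocytes and 0.194% and 0.215% of BAT adipocytes held a UMI. Wilson 95% intervals of such shares count nuclei and do not cover the spread between libraries, so none is used to compare the tissues. How many of all genes show this order of thinned shares was not counted.

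Vascular endothelial nuclei showed a larger gap for Maob in the same direction. They measured 13.9, 8.09, 1.48 and 1.36 CPM, from 35, 7, 3 and 3 UMIs. The tissues did not overlap, and both taPVAT libraries lay above both BAT libraries for 15.3% of genes in this class. The log2 difference of 2.90 ± 0.58 (SE; 95% interval 1.51 to 4.29) did not pass either (edgeR, unadjusted p = 0.00175, adjusted p = 1), when 1.34% of genes in this class stood at an unadjusted p under 0.05. With nuclei assigned singly it was 1.48, and without taPVAT replicate 1 Maob was filtered out for low counts in this class. Clusters of the class differ in Maob, with 46.2, 11.9, 12.4 and 0 CPM in that with Vwf and 24.7, 34.0, 3.46 and 6.35 CPM in that led by Eln and Gja5. The Vwf cluster had 220, 31, 40 and 30 nuclei and supplied 17 of the 35 UMIs of taPVAT replicate 1, and the part of this make-up in the difference was not tested.

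Whether the tissue difference itself differed between classes was tested in a fit chosen after the data were seen, with adipocytes as the base, over 11310 genes. No member was called there, while in fibroblasts 0.159% of all genes were. For Maob the tissue difference in vascular endothelial nuclei exceeded that in adipocytes by 1.73 ± 0.80 on the log2 scale (SE; unadjusted p = 0.0396, edgeR adjusted p = 1), when 0.0177% of genes were called. In myeloid nuclei it was below that in adipocytes by a log2 difference of -1.52 ± 0.59 (unadjusted p = 0.0151, edgeR adjusted p = 1), when 0% were called. Myeloid Maob was at 42.3 ± 14.4 CPM in taPVAT and 51.0 ± 4.53 CPM in BAT. For Slc22a3 the mural difference from adipocytes was -1.15 ± 0.47 (unadjusted p = 0.0196, edgeR adjusted p = 1), and the mural values of 195, 37.1, 242 and 179 CPM show taPVAT replicate 2 apart from the rest. The Acta2 and Myh11 cluster, with the higher Slc22a3 level, made up 145 of 741, 19 of 287, 162 of 569 and 144 of 535 mural nuclei, the smallest part in taPVAT replicate 2, and the part of this make-up in the difference was not tested. In this comparison 0.106% of all genes were called. The tissue test in mural nuclei gave -0.87 ± 0.58 and called Slc22a3 without taPVAT replicate 1, at -2.49, when taPVAT replicate 2 alone stood for its tissue and 330 of 8835 genes were called, against 1 of 8729 with all 4 libraries.

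**Figure D5:**
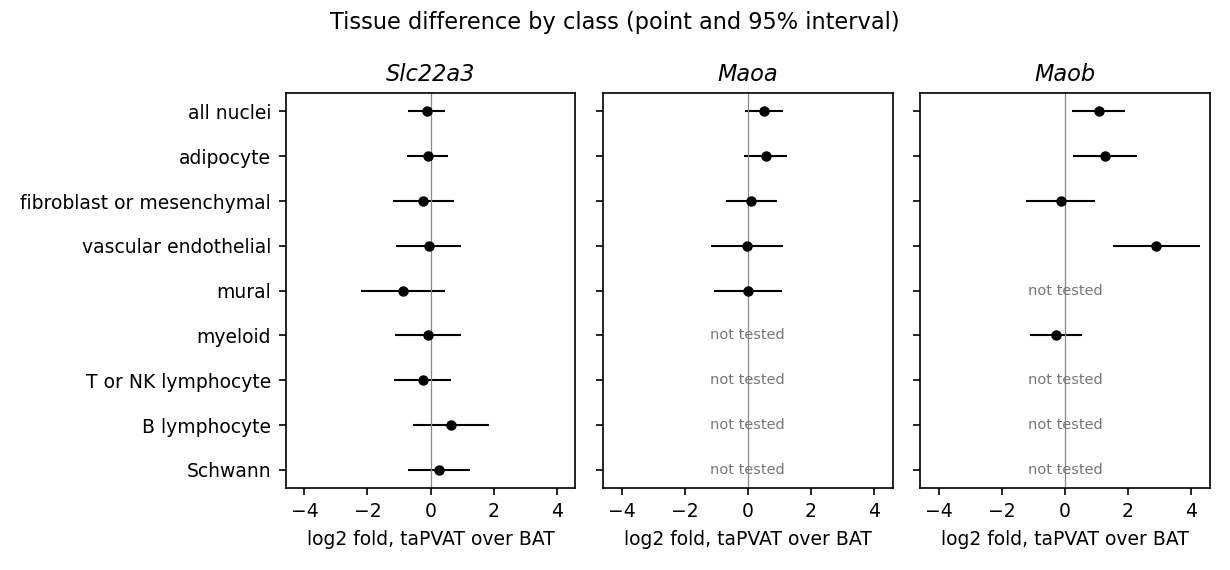
Log2 fold change of taPVAT over BAT for Slc22a3, Maoa and Maob in all nuclei and in each class where it was tested, with 95% intervals from edgeR's fit (2 libraries a tissue). Maob in adipocytes (1.26, interval 0.26 to 2.27) and in vascular endothelial nuclei (2.90, interval 1.51 to 4.29) lies above 0, whereas Slc22a3 in adipocytes spans it (-0.74 to 0.55).

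Among adipocytes, the clusters with Kcnip1 among their leading genes differed from the other adipocyte clusters in both oxidases. They held 2505, 757, 2862 and 1916 nuclei. Maob measured 11.7, 23.8, 9.10 and 12.0 CPM in them and 6.74, 2.64, 1.49 and 1.21 CPM in the other adipocytes, higher in each of the 4 libraries. Maoa measured 26.0, 29.9, 20.8 and 19.9 CPM against 15.4, 17.1, 11.2 and 10.4 CPM, also higher in each library. Slc22a3 measured 295, 412, 313 and 448 CPM against 414, 410, 447 and 459 CPM, lower in 3 of 4 libraries. Other genes differed as well. Ptprc measured 19.0, 29.6, 22.6 and 21.2 CPM in the Kcnip1 clusters against 9.94, 7.27, 7.33 and 8.85 CPM. Adipoq measured 608, 574, 669 and 386 CPM against 289, 208, 342 and 255 CPM. The part of RNA from other cells in the oxidase levels was not tested. These clusters were set apart after their values were seen, and no test was made. The share of all genes ordered in this way was not counted.

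The uptake gene and the oxidases were seen together in part of the adipocytes. Of 1537, 692, 1262 and 638 adipocytes with a Maoa UMI, 1096, 524, 980 and 467 also held a UMI of Slc22a3. Of 668, 168, 237 and 133 adipocytes with a Maob UMI, 478, 129, 181 and 92 held one of Slc22a3. Both oxidases were found in 60, 27, 15 and 12 adipocytes. Nuclei with more UMIs are more likely to show any pair of genes, so these counts describe joint detection and not joint regulation. In myeloid nuclei only 1, 0, 1 and 1 nuclei held both oxidases.

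Other genes of amine synthesis and breakdown came from a list of 31, of which 29 were in the tables and 21 could be tested between the tissues in adipocytes. None was called there, and the median log2 fold change of the tested genes was 0.00 against 0.00 for all genes. In adipocytes the most abundant genes of the list were Foxo1 (663 ± 43.2 CPM, SD, n = 4), a transcription factor linked to Maoa expression, Aoc3 (135 ± 24.8 CPM), which encodes a semicarbazide-sensitive amine oxidase of the adipocyte surface, Nr3c1 (113 ± 8.13 CPM), the glucocorticoid receptor, and Flad1 (70.9 ± 16.7 CPM), an enzyme that makes the flavin cofactor of the oxidases.

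Against adipocytes, 17 genes of this list were tested in each class. In fibroblasts 5 were higher and 4 lower, in vascular endothelial nuclei 6 and 5, in mural nuclei 5 and 4, in myeloid nuclei 4 and 4, in T or NK lymphocytes 3 and 4, in B lymphocytes 1 and 3, and in Schwann nuclei 0 and 3. These are 0% to 35.3% higher and 17.6% to 29.4% lower, beside 13.3% to 32.2% and 23.5% to 32.3% of all genes over the 7 classes, so the counts are no result about the list. The median log2 fold change of the list was between -0.31 and 0.48 over the classes, and that of all genes between -0.48 and 0.03. Sult1a1, a phenol sulfotransferase, was higher in vascular endothelial nuclei at 64.9, 41.6, 62.9 and 44.6 CPM (log2 fold change 1.58 ± 0.21, edgeR adjusted p = 3.19e-08) and in fibroblasts (1.38 ± 0.21). Aldh2, an aldehyde dehydrogenase that acts after the oxidases, was higher in myeloid nuclei at 113, 130, 96.2 and 126 CPM (edgeR adjusted p = 7.44e-05).

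The largest differences of the list were in genes of other amine chemistry. Gch1, which encodes the first enzyme of tetrahydrobiopterin synthesis, measured 31.9, 69.3, 33.7 and 40.0 CPM in vascular endothelial nuclei and 18.3, 66.0, 32.5 and 43.8 CPM in myeloid nuclei, with log2 fold changes over adipocytes of 6.31 ± 0.30 and 6.03 ± 0.33. Loxl1 and Lox, lysyl oxidases that crosslink matrix proteins, were higher in fibroblasts, Loxl1 with a log2 fold change of 5.59 ± 0.40 and Lox at an edgeR adjusted p of 2.77e-10. Aoc3 was higher in fibroblasts as well, at 169, 227, 256 and 205 CPM (0.47 ± 0.14, edgeR adjusted p = 0.00376). Flad1 was lower in each of the 7 classes, from -1.09 ± 0.28 in T or NK lymphocytes to -2.57 ± 0.41 in Schwann nuclei. The other genes counted as lower above are not described singly, so the genes named here lean to the higher direction. Klf11, a transcription factor that is known to act on the oxidase genes, was higher in vascular endothelial nuclei at 28.7, 31.2, 27.7 and 30.9 CPM (1.75 ± 0.25, edgeR adjusted p = 2.15e-07).

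For each member with at least 200 UMIs, the 3 genes with the most similar pattern were taken by Pearson's r of log2(CPM + 1) over the means of 8 classes, among 11492 genes. The points share libraries and adipocyte RNA, so r is a description. Miga2, Chpt1 and Crls1 (each r = 0.99) were nearest to Slc22a3, and all 3 had their highest level in adipocytes. RGD1305110 (0.98), Mb21d2 (0.98) and Cdc42bpb (0.97) were nearest to Maoa, the first highest in fibroblasts and the other two in vascular endothelial nuclei. Gpnmb (0.94), Slc35f6 (0.94) and Trim13 (0.93) were nearest to Maob, and all 3 were highest in myeloid nuclei. For Slc18a2 the nearest were Adamts10, Sgf29 and Nfya (0.96, 0.96 and 0.95) and for Slc22a2 Parm1, Mob3b and Trim63 (0.96, 0.92 and 0.91), from class levels that rest on few UMIs.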

How the data were processed

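Nuclei were isolated from frozen tissue with a 10x kit and sequenced as 3′ libraries, per the labels' protocols. The deposited files hold raw UMI counts per gene and barcode, made by the authors with Cell Ranger 7.1.0 and build Rnor_6.0, per the submitters' processing notes; how intronic reads were treated, and which annotation was used, is not given in the sources used here. Every barcode held at least 500 UMIs. Nuclei with at least 500 genes were kept and scored for doublets with Scrublet in scanpy 1.11.5 (expected rate 0.8% per 1000 nuclei). Scrublet's own threshold called 0 nuclei in BAT replicate 1, so the highest-scoring nuclei were removed at 1 fixed share of the expected rate, 3.29% to 11.5% of a library. Leiden clusters (leidenalg 0.10.2, resolution 2) of an exact nearest-neighbour graph were named from marker lists by their levels. Clusters with markers of adipocytes and of another class were called mixed and were not compared, but their nuclei could enter where nuclei were assigned singly.

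UMIs were summed per library and class, for classes with at least 20 nuclei in every library. Sums were tested with edgeR 4.0.16 (quasi-likelihood, TMM, filterByExpr, R 4.3.3), with tissue as the only term, or library and class for classes against adipocytes, and p-values were adjusted over all genes of a fit. The script recovered large known changes in simulated data before use. Those data had no effect of the replicate number, so this checks the code and does not give the power here. CPM are UMIs per 1000000 UMIs of the same sum, without library scaling. DESeq2 1.42.0, other filters, a replicate block, left-out libraries and single-nucleus assignment were the alternatives. Intervals on single values are exact Poisson or Wilson at 95% and cover counting error only.

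The 8 genes, the pathway list and the marker lists were chosen with earlier results of these data known. Named genes are the 8 members, the genes of the pathway list called in a fit (1 of them is not reported here), its 4 most abundant in adipocytes, Th, Dbh and Aoc3, and the 3 genes most alike to each member. No promoter is printed for Slc6a2 or Slc18a1.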

Additional observations from a re-analysis of the deposited data

How the results depend on the processing

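Against adipocytes, 59 of 60 alternative values of Slc22a3, 41 of 52 of Maoa and 49 of 60 of Maob kept their direction and side of the threshold. The values of Maoa leave out B lymphocytes. The number of genes called between the tissues moved more. In all nuclei it was 0, against 107 with DESeq2, 61 without the low-count filter, 367 with the replicate block and 0 to 37 with 1 library left out. In adipocytes it was 0, against 63, 21, 357 and 0 to 111. In the other classes it was 24 of 45190 tests, against 69, 313, 394 and 82 to 470, and 0 with nuclei assigned singly. Members called went from 0 to 1 in adipocytes with the replicate block (Maob) and from 0 to between 0 and 1 in the other classes with 1 library left out (Slc22a3 in mural nuclei). Where 1 library was left, it was assumed to vary like the others. The replicate block changed no other call of a member. Deviations from the tissue means correlated at 0.809 in all nuclei and 0.844 in adipocytes between same-numbered libraries. Same-numbered libraries thus deviated alike, but with 2 pairs and no label on shared animals this does not show pairing. The tests without the block leave this shared deviation in their error, so their counts of 0 do not show that the tissues are alike. Against adipocytes 39770 gene tests were called, and 25334 with at least 1000 genes per nucleus, where member calls went from 14 of 21 to 7 of 15 tests and fewer classes could be fitted. These gene calls are 53.1% and 52.4% of all gene tests. With nuclei assigned singly 9 of 21 member tests were called, beside 35.6% of all gene tests. Classes with Slc22a3 above the median marker in every library went from 0 to 1 with nuclei assigned singly, and, of the 7 classes with 4 libraries, those with Maoa above the markers in every library were 4 against the median marker and 2 against the highest. These 2 were fibroblast and Schwann nuclei, and with nuclei assigned singly fibroblast and vascular endothelial nuclei.

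Signs changed, each far from the threshold, for Slc22a3 between the tissues in vascular endothelial nuclei, from -0.06 to 0.40 without taPVAT replicate 2, 0.26 without BAT replicate 1 and 0.05 with at least 1000 genes (-0.83 to 0.40 with 1 library left out). Maoa there went from -0.01 to 0.27 and 0.71 without the same libraries (lowest -0.51), 0.11 with at least 1000 genes, 0.00 without doublet removal and 0.33 with nuclei assigned singly. Against adipocytes, Maoa in mural nuclei went from 0.11 to -0.15 without BAT replicate 1 (highest 0.28), and Maob in vascular endothelial nuclei from 0.50 to -0.10 without taPVAT replicate 1 (highest 0.69). Maob in mural nuclei went from -0.36 to 0.19 without taPVAT replicate 1 (lowest -0.70) and to 0.10 with nuclei assigned singly, and in B lymphocytes from 0.30 to -0.34 without BAT replicate 1 (highest 0.57) and to -0.04 with nuclei assigned singly. The cause was not tested. With at most 5% mitochondrial UMIs only adipocytes had 20 nuclei in every library, so the class comparison and the tissue comparison of other classes were not run there. Depth limits Slc6a2, Slc18a1, Slc29a4 and the small classes most.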
